A study of Mus musculus with 36 samples.

Results

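The 9 cadherin genes Cdh1, Cdh2, Cdh3, Cdh4, Cdh6, Cdh8, Cdh11, Cdh13 and Cdh16 were followed across 9 groups of sorted mouse kidney progenitor cells. They are 9 of the 22761 genes in the table and were found by their gene symbols. The members were chosen by their measured levels in these same libraries, so their levels and the differences between groups are given as a description without a test. Cdh1, Cdh3 and Cdh16 were higher in the E11.5 bud than in both E11.5 mesenchymes, and Cdh2, Cdh6, Cdh11 and Cdh13 lower, all without overlap. Cdh4 was highest in nephron progenitors and Cdh8 in stromal progenitors sorted from embryos. The ES-derived bud cells kept Cdh1 and also held Cdh2 at 157 ± 15.5 normalised CPM (mean ± SD, n = 4), against 11.7 ± 1.74 in the E11.5 bud.

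The study set out to build kidney organoids from mouse ES cells. As part of this, its sequencing compared the ES-derived progenitors with their counterparts taken from the embryo. RNA was sequenced from 36 sorted samples, 4 in each of 9 groups. Cells of the ureteric bud (UB), nephron progenitors (NP) and stromal progenitors (SP) came from CD1 mice at E11.5 and E12.5 and are called ex-fetu. The iNP and iSP groups were differentiated from the E14 mESC line. The eUB group was differentiated from a mESC line that the labels and the sequencing methods call Sox9-mCherry, while the methods for making a reporter line describe Sox8-mCherry. The labels title these eUB samples iUB. Each ex-fetu sample is a pool over the embryos of a single pregnant mouse, and each ES-derived sample a pool of embryoid bodies differentiated at one time. No other genotype or treatment is given for the ex-fetu groups, and each ES-derived group represents a single line, so line and derivation cannot be told apart. The sort gate took RET+/EpCAM+ cells for the ex-fetu UB and EpCAM+/mCherry+ cells for the eUB. NP and iNP cells were ITGA8 high and PDGFRA low, and SP and iSP cells ITGA8 low and PDGFRA high, both after removal of CD31 positive and EpCAM or RET positive cells. The titles give the age of each UB sample, but the cell source field gives the other age for all 8 ex-fetu UB samples; the titles and the cell type field were followed here.

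Cadherins are calcium-dependent adhesion proteins that bind cells of like type through adherens junctions, and their cytoplasmic tails recruit catenins. E-cadherin (Cdh1) holds epithelia together, whereas N-cadherin (Cdh2) and cadherin-11 (Cdh11) are typical of mesenchyme. In the kidney the ureteric bud is an epithelial tube, and the cap mesenchyme around its tips later passes through a mesenchymal to epithelial transition, during which cadherins are exchanged.

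Upstream sequences were held for 2 of the 9 members, Cdh6 and Cdh8. They are shown because both genes were stromal-high ex fetu and both were lower in iSP than in ex-fetu SP. Each line gives the 250 bases before the start of the gene, 5′ to 3′ on the gene's strand, from RefSeq (GRCm38.p6). The window of Cdh6 is chr15:13173676-13173925 on the minus strand and that of Cdh8 is chr8:99416472-99416721 on the minus strand. Capitals mark the matches to CANNTG, the E-box core bound by many basic helix-loop-helix and zinc finger factors.
Cdh6: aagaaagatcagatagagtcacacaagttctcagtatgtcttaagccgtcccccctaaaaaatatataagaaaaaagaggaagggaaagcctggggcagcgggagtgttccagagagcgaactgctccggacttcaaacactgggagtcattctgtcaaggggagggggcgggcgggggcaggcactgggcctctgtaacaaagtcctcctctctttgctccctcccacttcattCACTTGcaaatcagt
Cdh8: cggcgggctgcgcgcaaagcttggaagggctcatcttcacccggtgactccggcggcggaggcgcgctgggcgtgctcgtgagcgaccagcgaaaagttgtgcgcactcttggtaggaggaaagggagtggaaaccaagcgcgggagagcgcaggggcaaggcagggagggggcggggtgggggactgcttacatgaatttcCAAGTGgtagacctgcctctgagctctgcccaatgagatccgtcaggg

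Each window held 1 CANNTG. In Cdh6 it began 15 bases before the start and read CACTTG, and in Cdh8 it began 48 bases before the start and read CAAGTG, the reverse complement. CANNTG, which reads alike on both strands, was present in 66.2% of the 32851 promoter windows of the same length, and CACTTG or CAAGTG in 11.6%. CAGGTG or CACCTG, also forms of CANNTG, was found in 17.2% of all windows and in neither of these. GGGCGGG or CCCGCCC was found in 23.4% of all windows, at 84 and 80 bases before the start in Cdh6 and at 80 in Cdh8, and the 2 matches in Cdh6 overlap each other. The windows were 51.2% and 64.4% G and C. These matches describe the letters only.

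The libraries held 13.0 to 52.5 M reads in genes (median 27.4 M), so that 3 reads were worth 0.0605 to 0.223 normalised CPM. Normalised CPM is the authors' read count scaled to library size with their normalisation factors. Several libraries stood apart from their groups before any comparison. E12.5 UB replicate 1 had a summed level of 7 nephron progenitor markers of 313, against 28.7 to 39.5 in the other 3, and a summed level of 6 endothelial markers of 94.2, against 3.27 to 6.23. Its 8 bud markers summed to 1954, against 2924 to 3167. E12.5 NP replicate 1, E12.5 SP replicate 1 and iNP replicate 2 had the lowest sums of their own markers in their groups, at 982, 1758 and 489. Values without these 4 libraries are given where they move a level. Of the 8 bud markers, 8 were called higher in E11.5 UB than in E11.5 NP and 7 than in E11.5 SP, while Wnt11 was called lower than in SP (75.9 against 119.96). Of the 7 nephron progenitor markers, Cited1 was called higher in E11.5 UB than in E11.5 SP. Both were named after their values were seen. Foxd1, the defining gene of the cortical stroma, averaged 15.2 in iSP against 410 in E11.5 SP. The 6 stromal markers, which include Foxd1, did not fall as a sum. They summed to 2144 to 2355 in iSP and 1838 to 2392 in E11.5 SP, which overlapped. The paper reports sorted iSP cells as positive for FOXD1 and MEIS1 by staining. Six2, which maintains nephron progenitors, averaged 139 in iNP against 590 in E11.5 NP. The 7 nephron progenitor markers were also lower as a sum, averaging 653 in iNP and 1189 in E11.5 NP. In bulk samples such as these, fewer cells of a type and less RNA per cell cannot be told apart. P-values measure the spread between these pooled samples.

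Over the 36 pairs of groups, the 4 values of 1 group lay wholly above or below those of the other in 224 of 324 member pairs (69.1%). Over the 16001 genes tested in all libraries, 48.0% of such pairs did not overlap. The members were chosen for their levels, so nothing is read from the gap. Cdh4 separated the most pairs of groups (31 of 36) and Cdh2 the fewest (19 of 36).

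**Figure D1:**
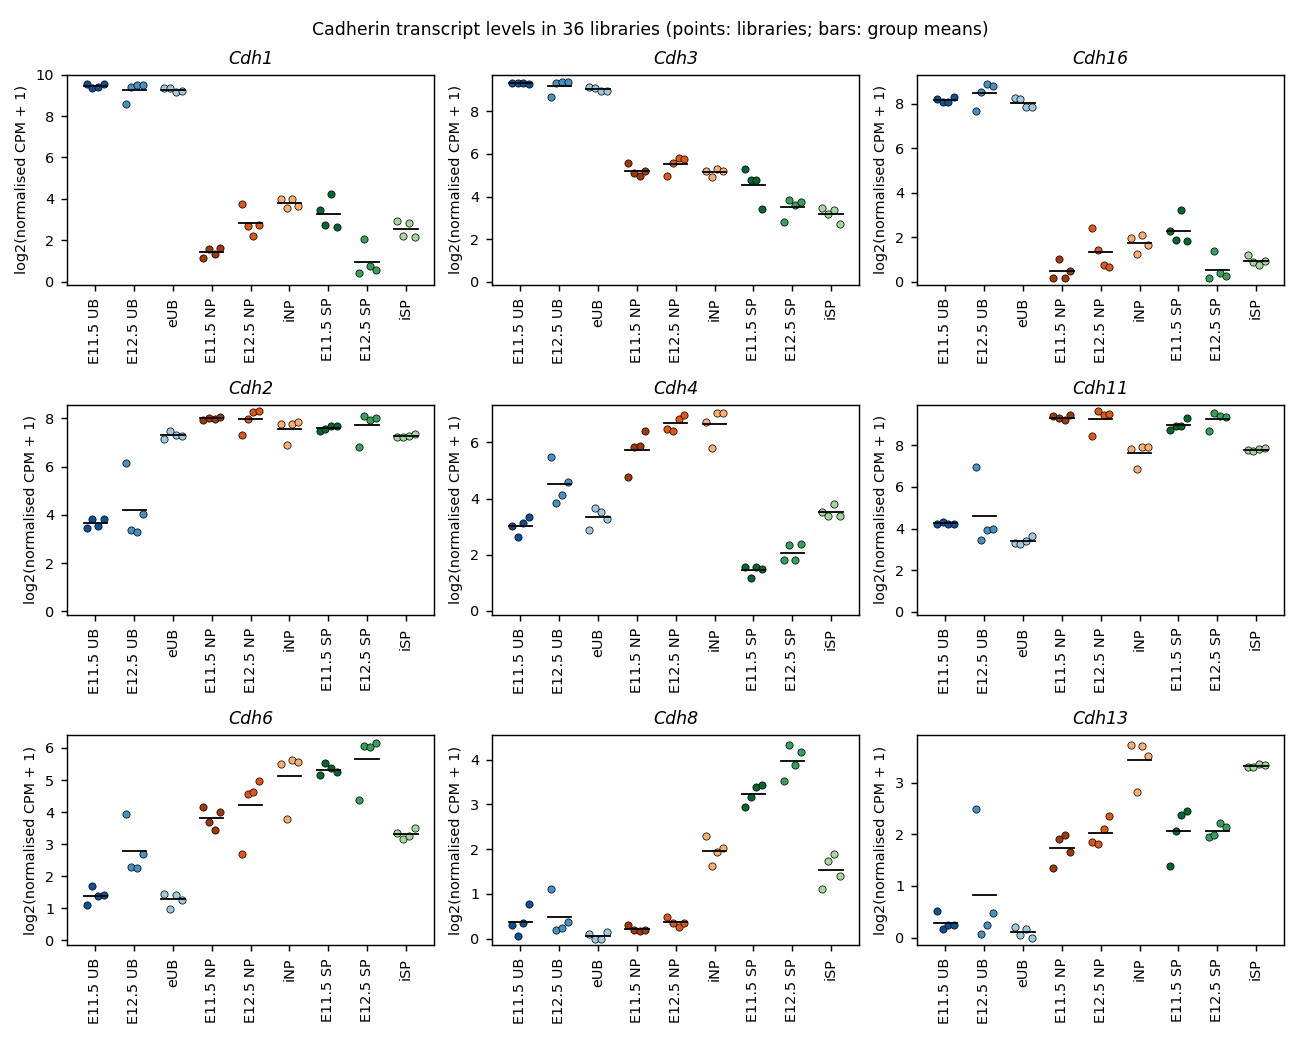
Level of each of the 9 cadherins in each of 36 libraries, as log2(normalised CPM + 1), by group, with points for libraries and bars for group means. Cdh1, Cdh3 and Cdh16 stand high in the 3 bud groups, while Cdh2 stands high in eUB and in all 6 mesenchymal groups.

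Cdh1, the E-cadherin of epithelial adherens junctions, read 660 to 747 normalised CPM in the 4 E11.5 UB libraries (737, 660, 666 and 747). The 4 eUB libraries held 647, 658, 569 and 584, all below the E11.5 UB libraries, at 0.875 of their mean. E12.5 UB held 381, 676, 714 and 717, the lowest being replicate 1, and averaged 703 ± 23.1 without it (n = 3). E12.5 UB overlapped E11.5 UB, and eUB through replicate 1 of E12.5 UB alone. In the mesenchyme Cdh1 was low but not uniform. It averaged 1.71 ± 0.432 in E11.5 NP, with 1.21, 2.01, 1.49 and 2.12 in the 4 libraries. In iNP the libraries held 15.1, 10.7, 14.7 and 11.6, all above every E11.5 NP library and 7.62-fold higher on average. In SP it went the other way with age, from 9.64 ± 5.79 at E11.5 to 1.17 ± 1.34 at E12.5, and iSP lay between them at 4.92 ± 1.62.

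Beside these values, the 8 bud markers, which include the sort genes Ret and Epcam, summed to 243 ± 75.3 in E11.5 SP, 94.5 ± 15.9 in E12.5 SP and 74.3 ± 3.30 in iSP. In NP groups they summed to 50.5 ± 7.99 at E11.5, 42.3 ± 30.0 at E12.5 and 91.6 ± 3.41 in iNP. Wnt11, the highest of the 8 in each SP group, made up much of the SP sums. Without it the other 7 summed to 123 ± 44.3 in E11.5 SP, 30.4 ± 5.11 in E12.5 SP and 38.1 ± 2.71 in iSP. From E12.5 SP to iSP the sum of 8 was thus lower and the sum of 7 higher, while the mean of Cdh1 was higher. Within E11.5 SP and E12.5 NP the library with the highest sum of 7 also had the highest Cdh1 (replicate 3 at 17.7 and replicate 1 at 12.6). Within E12.5 SP and iNP it had the lowest Cdh1 (replicates 1 and 2). Within E11.5 NP and iSP it had neither the highest nor the lowest. The part of these markers in the low mesenchymal levels of Cdh1 was not tested.

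Cdh3, P-cadherin, another type I cadherin of epithelia, was the partner of Cdh1 in the bud. Its 4 E11.5 UB libraries read 641, 646, 644 and 618, and the eUB libraries read 562, 555, 498 and 495, all lower. Without replicate 1 at 408, E12.5 UB averaged 663 ± 10.7 (n = 3). In NP it averaged 36.6 ± 7.33 at E11.5, 46.0 ± 11.1 at E12.5 and 34.7 ± 4.12 in iNP, and these ranges overlapped. In SP it read 37.6, 26.7, 26.1 and 9.81 at E11.5, and 10.1, 8.09, 9.20 and 5.51 in iSP, so that the groups overlapped at the lowest E11.5 library. The bud marker sums given beside Cdh1 were also lower in iSP than in E11.5 SP, and their part was not tested. Per kb of exon, Cdh3 stood at 0.864 to 1.02 of Cdh1 in the E11.5 UB libraries and at 0.880 to 0.914 in eUB, but at 17.1 to 40.8 times Cdh1 in E11.5 NP.

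Cdh16, the kidney-specific cadherin of tubular epithelium, read 294, 268, 272 and 314 in E11.5 UB and 304, 292, 232 and 227 in eUB. These groups overlapped. E12.5 UB held 205, 369, 471 and 450, and without replicate 1 its mean of 430 ± 53.9 (n = 3) was 1.497-fold that of E11.5 UB, with all 3 libraries above all 4 at E11.5. Outside the bud Cdh16 averaged 0.416 to 4.34 in every group. In E11.5 NP it rested on 3, 30, 3 and 12 reads, so replicate 2 carried most of that mean. It read 3.77, 2.63, 8.38 and 2.60 in E11.5 SP and 1.30, 0.824, 0.665 and 0.912 in iSP, which did not overlap. The part of the bud markers given beside Cdh1 was not tested.

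Cdh2, the N-cadherin of mesenchyme, neurons and muscle, stood far higher in eUB than in the embryonic bud. E11.5 UB libraries held 9.91, 13.3, 10.5 and 13.1 normalised CPM. The eUB libraries held 139, 177, 159 and 152, every one above every ex-fetu UB library. The mean in eUB was 13.4-fold that of E11.5 UB. Against E12.5 UB it was 6.07-fold with all 4 libraries and 14.0-fold without replicate 1, which read 69.6 against 8.87 to 15.4 in the others. The eUB level overlapped that of iSP (150, 151, 152 and 163). E11.5 NP held 247 to 268 and E11.5 SP 176 to 203, both wholly above iSP. In iNP the libraries read 215, 120, 216 and 233, all below E11.5 NP, and replicate 2 was far below the other 3.

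The other mesenchymal members did not accompany Cdh2 in eUB. Cdh11, cadherin-11 of mesenchymal cells, read 9.06, 8.70, 9.45 and 11.4 in eUB, all below the 17.6 to 18.9 of E11.5 UB. The summed 7 nephron progenitor markers were 40.5 ± 4.46 in eUB and 42.6 ± 1.46 in E11.5 UB, while the 6 stromal markers summed to 206 ± 9.88 and 137 ± 8.52. Of the stromal markers 2 of 4 tested were called higher in eUB, against 32.1% of all genes. The 7 neural progenitor and neuron markers summed to 15.0 ± 2.62 and 25.2 ± 5.14. The 4 neural crest and glia markers summed to 19.8 ± 2.17 in eUB and 3.05 ± 0.401 in E11.5 UB. In the mesenchyme they summed to 19.7 ± 3.20 in iNP, 6.84 ± 4.97 in E11.5 NP, 2.18 ± 0.322 in iSP and 1.94 ± 0.394 in E11.5 SP. Whether cells of these kinds contributed to Cdh2 in eUB was not tested. The per kb ratio of Cdh11 to Cdh2 was 0.0446 to 0.0679 in eUB, below 1.21 to 1.62 in E11.5 UB, and every ex-fetu mesenchyme library held more Cdh11 than any eUB library.

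**Figure D2:**
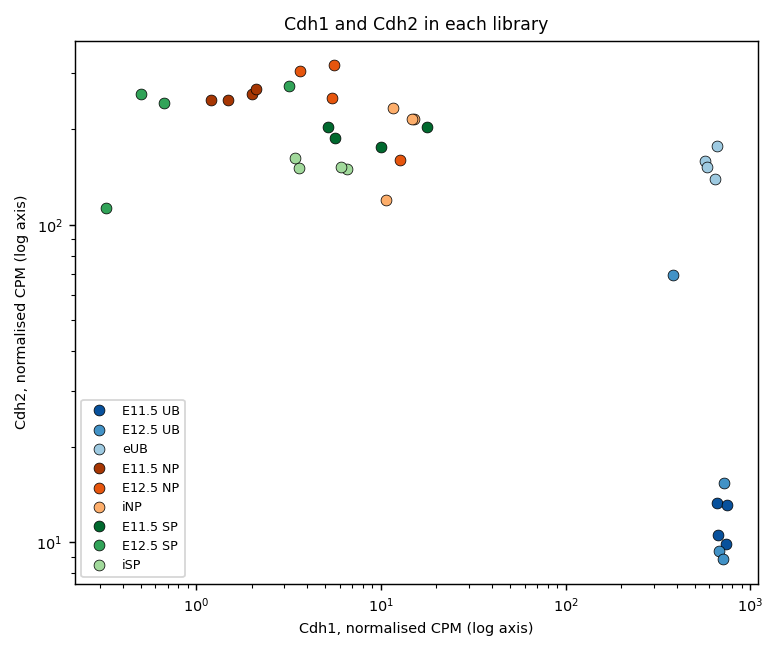
Cdh1 against Cdh2 in each of the 36 libraries, both in normalised CPM on log10 axes, coloured by group. The 4 eUB libraries lie at the Cdh1 level of the bud and between 139 and 177 for Cdh2, apart from the ex-fetu UB libraries, of which E12.5 UB replicate 1 at 69.6 is the nearest.

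Cdh11 was the most abundant member per kb of exon in ex-fetu mesenchyme. It read 665, 636, 585 and 688 normalised CPM in E11.5 NP and 427, 477, 477 and 636 in E11.5 SP. In iNP it read 225, 116, 239 and 238, and in iSP 215, 211, 221 and 233, all below every ex-fetu NP or SP library. The ex-fetu mean was 3.15-fold the iNP mean (2.75-fold without iNP replicate 2) and 2.29-fold the iSP mean, both at E11.5. E12.5 NP replicate 1 (352) and E12.5 SP replicate 1 (406) were the lowest of their groups, and without them these averaged 742 ± 42.4 and 691 ± 47.8 (n = 3 each). In the UB it averaged 18.0 ± 0.581 at E11.5, and E12.5 UB replicate 1 stood at 123 against 9.94 to 15.0.

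Cdh4, R-cadherin, a type I cadherin of nervous tissue and kidney, was a nephron progenitor member. E11.5 NP libraries held 26.5, 56.5, 58.3 and 82.9, while E11.5 SP libraries held 1.24 to 1.97. That made a 32.3-fold difference in means with no overlap. The iNP libraries held 106, 55.0, 131 and 131, which overlapped E12.5 NP (84.6 to 125), and E11.5 NP through replicate 2 of iNP alone. Replicate 2 was the low one, and the 3 others averaged 123 ± 14.4. In iSP Cdh4 read 10.4, 9.46, 13.1 and 9.29, all above the E11.5 SP and E12.5 SP libraries and 6.08-fold the E11.5 SP mean. Beside this, the 7 neural progenitor and neuron markers summed to 69.1 ± 15.3 in iSP, 16.7 ± 4.46 in E11.5 SP and 8.87 ± 2.78 in E12.5 SP. Of the 2 tested against E11.5 SP, Stmn2 was called higher in iSP (66.2 against 4.51) and made up nearly all of its sum, and Tubb3 was called lower (1.38 against 10.7). Both are markers of neurons, and the part of neural cells in Cdh4 was not tested. In the UB groups Cdh4 averaged 7.29 ± 1.62 at E11.5 and 9.35 ± 2.32 in eUB. E12.5 UB averaged 17.7 ± 4.87 without replicate 1 (n = 3), which read 43.4.

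Cdh6, K-cadherin, a type II cadherin of early tubule precursors, changed its order between NP and SP with the source of the cells. Ex-fetu SP stood above ex-fetu NP, with 34.6, 45.005, 40.5 and 37.3 against 17.1, 11.8, 9.98 and 15.1 at E11.5. Among ES-derived cells iNP stood above iSP, with 44.7, 12.8, 48.7 and 46.5 against 9.23, 7.99, 8.64 and 10.3. At E11.5 and among the ES-derived cells NP and SP did not overlap, whereas at E12.5 they did, through SP replicate 1. The replicate numbers pair these E12.5 groups, and within each of the 4 pairs Cdh6 was higher in SP, by 3.66-, 2.91-, 2.71- and 2.29-fold. Through replicate 2 iNP overlapped E11.5 NP. Relative to E11.5, Cdh6 averaged 2.83-fold higher in iNP (3.45-fold without replicate 2, the library at 12.8) and 4.35-fold lower in iSP. E12.5 NP replicate 1 and E12.5 SP replicate 1 were low at 5.45 and 19.9, and the other E12.5 libraries held 22.6 to 30.6 and 64.9 to 69.9. The UB groups averaged 1.66 ± 0.442 at E11.5 and 1.45 ± 0.3298 in eUB, which overlapped.

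The 6 early nephron markers, which include Wnt4 and Lhx1, summed to 634 ± 66.3 in iNP and 231 ± 73.5 in E11.5 NP. The same 6 summed to 398 ± 74.5 in E12.5 NP, 524 ± 52.8 in E11.5 UB and 547 ± 79.5 in eUB, so they are not particular to NP cells. They stood beside the higher Cdh1, Cdh6 and Cdh4 means of iNP, and their part in these was not tested.

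Cdh8, a type II cadherin known from the nervous system, followed ex-fetu stroma. It read 6.64, 8.02, 9.495 and 9.88 in E11.5 SP and 10.5, 19.2, 13.6 and 17.1 in E12.5 SP, and these groups did not overlap. The iSP libraries held 1.16, 2.33, 2.70 and 1.62, a 4.36-fold lower mean than E11.5 SP. The iNP libraries held 3.87, 2.10, 2.84 and 3.05, against 0.128 to 0.234 in E11.5 NP. Hence Cdh8 lay lower in iSP and higher in iNP than in the E11.5 cells, and iNP and iSP overlapped through iNP replicate 2. The neural progenitor and neuron markers summed to 44.6 ± 10.8 in iNP and 8.36 ± 1.95 in E11.5 NP. Of these, 5 of 6 tested were called higher in iNP, against 35.5% of all genes. So were 2 of 3 tested neural crest and glia markers, with the sums given for Cdh2. Their part in Cdh8 and Cdh4 of iNP was not tested. In eUB Cdh8 rested on 4 reads in all, in replicates 1 and 4, and no fold is given. Its exons share 23 bases with Gm15679 on the opposite strand.

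Cdh13, T-cadherin, which is anchored by a lipid and has no cytoplasmic tail, was higher in both ES-derived mesenchymes than in their ex-fetu counterparts. It read 12.3, 6.07, 12.0 and 10.4 in iNP against 1.56, 2.75, 2.99 and 2.15 in E11.5 NP, a 4.32-fold higher mean. In iSP it read 8.89, 8.88, 9.35 and 9.19 against 1.60, 3.16, 4.17 and 4.499 in E11.5 SP, 2.70-fold. Neither pair overlapped. It was near the level of a few reads in the bud, with 6 reads in all 4 eUB libraries together. E12.5 UB replicate 1 held 4.63, against 0.0473 to 0.386 in the other 3. Without it E12.5 UB was 0.906 of E11.5 UB. Endothelial cells also express Cdh13, and the 6 endothelial markers summed to 68.4 ± 14.3 in iNP against 20.1 ± 8.38 in E11.5 NP, and to 45.1 ± 9.77 in iSP against 25.1 ± 13.9 in E11.5 SP. Limma called 6 of 6 of them higher in iNP and 4 of 6 in iSP, against 35.5% of all genes in both. Their part in the Cdh13 levels was not tested.

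Between the ex-fetu ages, Cdh1 in SP averaged 8.27-fold lower at E12.5 than at E11.5, Cdh16 8.08-fold lower and Cdh3 2.34-fold lower, the first 2 with no overlap and Cdh3 with overlap through E11.5 SP replicate 4. The bud marker sums given beside Cdh1 were also lower in E12.5 SP, and their part was not tested. Without E12.5 SP replicate 2, which held 3.16 for Cdh1 and 1.57 for Cdh16 against at most 0.669 and 0.287 in the others, Cdh1 was 19.3-fold and Cdh16 22.5-fold lower. Cdh4 and Cdh8 went the other way, 1.90-fold and 1.77-fold higher at E12.5, both with no overlap. In NP Cdh1 averaged 3.997-fold higher at E12.5 (2.86-fold without replicate 1), with 12.6, 5.44, 3.64 and 5.58 in the 4 libraries, all above E11.5. The bud markers of E12.5 NP replicate 1 summed to 86.9, against 22.9 to 29.8 in the others, and their part was not tested. Cdh4 averaged 1.83-fold higher and overlapped nowhere with E11.5 NP, whose highest library held 82.9 against a lowest of 84.6. In the UB the ratios turned on replicate 1. Without it, E12.5 UB stood at 0.957 of E11.5 UB for Cdh2 and 0.723 for Cdh11, against 2.20-fold and 2.25-fold with it, while Cdh4 (2.42-fold) and Cdh6 (2.65-fold) remained higher with no overlap.

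Measured against the E12.5 cells in place of the E11.5 cells, 24 of 27 ES-derived mean ratios kept their direction and 3 turned. Cdh11 averaged 3.15-fold lower in iNP and 2.82-fold lower in iSP than at E12.5, Cdh13 3.27-fold and 2.83-fold higher, and Cdh6 1.85-fold higher in iNP and 6.09-fold lower in iSP. Cdh8 averaged 10.3-fold higher in iNP and 7.74-fold lower in iSP. Cdh4 in eUB turned from 1.28-fold higher than E11.5 UB, with overlap, to 2.58-fold lower than E12.5 UB, with no overlap (1.89-fold without E12.5 UB replicate 1). In iNP Cdh4 went from 1.89-fold the E11.5 NP mean to 1.03-fold that of E12.5 NP, both with overlap. At E11.5 the overlap came through iNP replicate 2 alone, and the ratio without it was 2.19-fold. Cdh1 in iSP also depended on the age chosen. It averaged 1.96-fold lower than in E11.5 SP, with overlap, and 4.22-fold higher than in E12.5 SP, where the 3.45 to 6.57 of iSP lay above the 0.325 to 3.16 of E12.5 SP. Cdh16 in iSP was 4.69-fold lower than at E11.5 and 1.72-fold higher than at E12.5, where the ranges overlapped through E12.5 SP replicate 2 alone. Without that library Cdh16 was 4.80-fold and Cdh1 9.85-fold higher in iSP than in E12.5 SP, both with no overlap. Cdh1 in iNP averaged 1.91-fold that of E12.5 NP, with overlap through E12.5 NP replicate 1, and 2.82-fold without replicate 1 of E12.5 NP and replicate 2 of iNP. The ex-fetu groups serve in several of these ratios, so they are not independent.

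**Figure D3:**
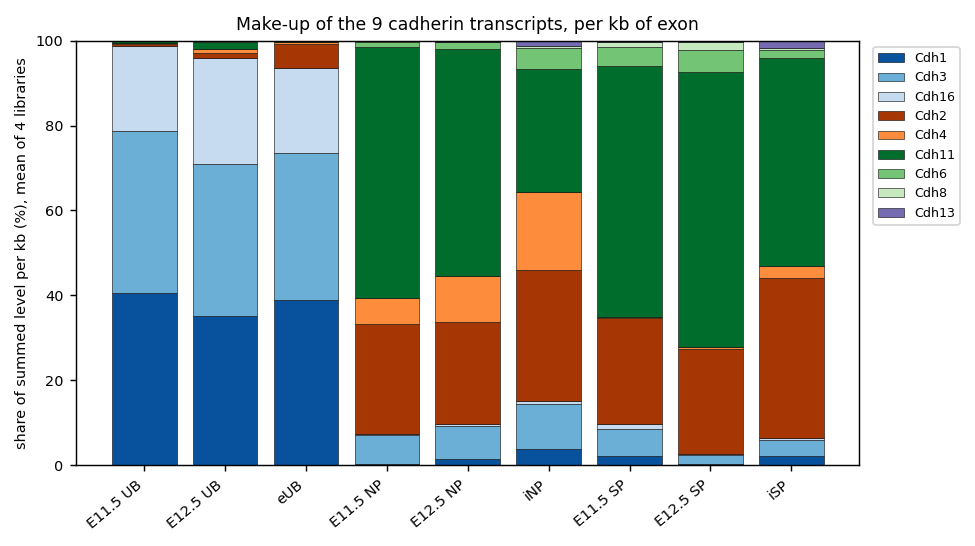
Make-up of the summed level of the 9 cadherins per kb of exon, in percent, as the mean of 4 libraries in each group. Cdh1, Cdh3 and Cdh16 fill the bud groups, with a 5.63% share of Cdh2 in eUB, and Cdh11 falls from 59.2% in E11.5 NP to 29.0% in iNP.

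Put on one scale per kb of exon, the members summed to 379 ± 13.2 in E11.5 UB, 346 ± 28.2 in eUB, 122 ± 7.90 in E11.5 NP, 78.8 ± 21.4 in iNP, 95.4 ± 8.59 in E11.5 SP and 50.5 ± 1.51 in iSP. In E11.5 UB, Cdh1 made up 40.5 ± 1.23% of the sum, Cdh3 38.4 ± 1.97% and Cdh16 19.9 ± 0.82%. The eUB make-up was 38.8%, 34.8% and 20.0% for the same genes, with Cdh2 at 5.63 ± 0.65% against 0.384 ± 0.06% in E11.5 UB. E11.5 NP and SP were alike in their main components, with Cdh11 at 59.2 ± 1.41% and 59.0 ± 5.53% and Cdh2 at 25.9 ± 0.996% and 25.0 ± 1.03%. In iNP Cdh11 was 29.0 ± 0.83%, Cdh2 30.9 ± 1.09% and Cdh4 18.2 ± 1.87%. In iSP Cdh11 was 48.9 ± 0.92% and Cdh2 37.8 ± 1.05%. The per kb ratio of Cdh11 to Cdh2 was 2.15 to 2.44 in E11.5 NP, 0.878 to 1.002 in iNP, 2.13 to 2.84 in E11.5 SP and 1.27 to 1.32 in iSP, so both ES-derived mesenchymes lay wholly below their ex-fetu counterparts.

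Across the 36 libraries, which share groups, sorts and depth, Cdh1 and Cdh16 ran closest together (Pearson r = 0.989), followed by Cdh1 and Cdh3 (r = 0.939), on log2(normalised CPM + 1). Cdh1 and Cdh11 ran oppositely (r = -0.943), and Cdh1 and Cdh2 less so (r = -0.757). These correlations over n = 36 libraries are descriptions. Among 16001 genes, the patterns most like Cdh1 were those of the tight junction gene Cldn7 (r = 0.993) and the membrane protease gene St14 and its inhibitor Spint1. Cdh16 was followed most closely by Cldn3 (r = 0.995), the splicing regulator Esrp1 and Ocln, and Cdh3 by Map7 (r = 0.990), Dsc2 and Fam84b. On the mesenchymal side the nearest patterns were Vcan (r = 0.975), Cap2 and Nell2 to Cdh2, Foxc2 (r = 0.985), Zeb1 and Rspo3 to Cdh11, and Lrrn2 (r = 0.943), Gucy1a3 and Kcns3 to Cdh6. Cdh4 had Plekhg6 (r = 0.942) and Fgf8, Cdh8 had Mrvi1 (r = 0.977), Bgn and Myo16, and Cdh13 had Igf2os (r = 0.932), Usp11 and Nrxn2.

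By position (GRCm38), 6 of the 9 members lie on chromosome 8, and Cdh3 (chr8:106510891-106557297) and Cdh1 (chr8:106603351-106670246) follow each other on the plus strand. Cdh16 lies at chr8:104601911-104624396 and Cdh11 at chr8:102632095-102785642, both on the minus strand. The bud members Cdh1, Cdh3 and Cdh16 thus share a chromosome with Cdh11 and Cdh8, whose patterns were mesenchymal.

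The genes that act with or on the members were tested with limma over all genes that passed the filter, in 7 lists of 73 genes that include catenins and nectins, repressors of Cdh1, epithelial regulators, other cadherins, Fat, Dachsous and Celsr cadherins, protocadherins and desmosomal genes. A gene was called at a Benjamini-Hochberg adjusted p below 0.05, and differences are on the log2(normalised CPM + 1) scale with standard errors. Between ex-fetu cell types at E11.5 the lists parted the bud from both mesenchymes. Of 55 tested in UB minus NP, 39 were higher, 13 lower and 3 not called, where 28.7% of all genes were called higher and 31.5% lower. The list median was 0.73 and the median of all genes -0.03. UB minus SP gave 31 higher and 22 lower of 60, against 26.8% and 26.7% of all genes. NP minus SP gave 11 higher and 24 lower of 54, against 21.0% and 22.2%. The E11.5 UB libraries serve in both bud comparisons, and the NP and SP libraries in 2 comparisons each.

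All 7 tested epithelial regulators and all 5 tested desmosomal genes were higher in UB than in NP, as they were than in SP. The splicing regulator Esrp1 averaged 354 in UB, 0.444 in NP and 4.67 in SP, and the UB minus NP difference was 7.96 ± 0.12 (limma adjusted p = 2.43e-13). Grhl2, a transcription factor that maintains epithelia, differed by 6.23 ± 0.11, and the plakophilin Pkp3 by 5.24 ± 0.12. Of the 7 repressors, 5 were lower in UB than in NP and 6 lower than in SP. Zeb1, which represses Cdh1, fell by 5.60 ± 0.12 against NP (limma adjusted p = 2.79e-12). Snai3 was the member of this list that was higher in UB, at 4.13 against 0.261 in NP and 0.122 in SP. NP and SP differed most in Twist1, which was 3.09 in NP and 117 in SP. Of the 10 tested protocadherins 3 were higher and 6 lower in NP than in SP. Pcdh8 averaged 173 in NP and 58.7 in SP, and Pcdh18 30.5 and 172.

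Between the ES-derived cell types the counts were eUB minus iNP 33 higher and 16 lower of 57, against 25.8% and 26.3% of all genes, and eUB minus iSP 37 higher and 19 lower of 60, against 32.0% and 32.7%. For iNP minus iSP they were 19 higher and 14 lower of 53, against 16.5% and 14.2%. All 5 tested desmosomal genes were higher in eUB than in either mesenchyme, and 6 of 7 repressors were lower. Zeb1 averaged 0.749 in eUB, 53.0 in iNP and 102 in iSP, and Esrp1 202, 0.755 and 0.435, so the high Cdh2 of eUB stood beside levels of Zeb1 and Esrp1 on the bud side. Several repressors, Twist1 among them, were nevertheless higher in eUB than in E11.5 UB, as given below. Dsp, which anchors desmosomes to keratin, was 28.2 in iNP and 5.57 in iSP.

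**Figure D4:**
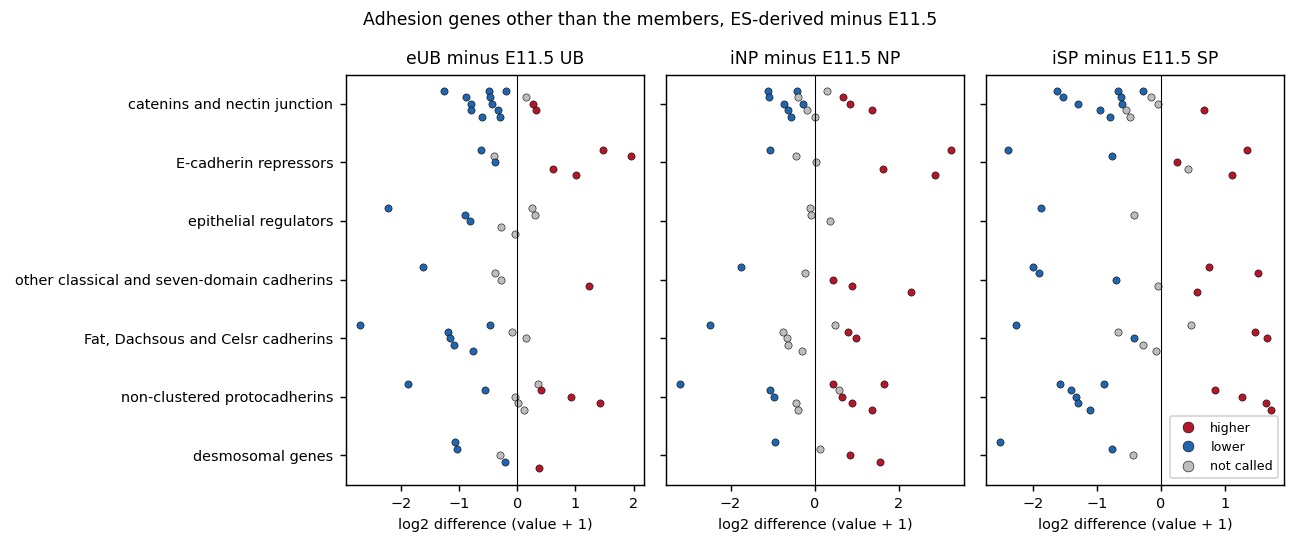
Log2 difference of each tested partner gene, with the ES-derived group minus its E11.5 ex-fetu counterpart, on the log2(normalised CPM + 1) scale, by list, for UB, NP and SP. Coloured points are called by limma and grey points are not. Most catenin and nectin genes lie below 0 in eUB, and Fat4 lies below 0 in all 3.

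In eUB minus E11.5 UB, 11 of 54 partner genes were higher, 28 lower and 15 not called, against 32.1% and 28.5% of all genes. The median of the lists was -0.32 and that of all genes 0.02. Of 14 tested catenin and nectin genes 2 were higher and 11 lower, and of 8 Fat, Dachsous and Celsr genes 0 were higher and 6 lower. The plakoglobin gene Jup fell by 1.27 ± 0.10 (limma adjusted p = 3.26e-06) from 496 to 205 on average. Grhl1 fell by 2.23 ± 0.10, the planar polarity gene Celsr1 by 1.18 ± 0.17, and Pcdh1 by 1.88 ± 0.08. Fat4, a giant cadherin, averaged 1.79 in eUB and 16.5 in E11.5 UB. Of 7 repressors 4 were higher and 2 lower, with Twist1 at 18.7 against 4.14 (1.95 ± 0.13, limma adjusted p = 1.22e-06) and Twist2 at 2.69 against 0.331. Zeb2 and Snai3 were lower, at 3.15 against 5.34 and 2.92 against 4.13. Cdh5, the cadherin of endothelium, had no read in the 4 eUB libraries and averaged 2.20 in E11.5 UB, at least 15.6-fold higher when eUB is set to 3 reads per library. The 6 endothelial markers, which include Cdh5, summed to 11.4 ± 1.80 in eUB and 8.50 ± 4.43 in E11.5 UB, and these sums overlapped. Macrophage markers differed, summing to 52.9 ± 10.4 in E11.5 UB and 0.323 ± 0.0845 in eUB, and their part in these lists was not tested.

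In iNP minus E11.5 NP, 18 of 51 were higher, 14 lower and 19 not called, against 35.5% and 29.2% of all genes. The repressors Snai1 and Twist1 rose by 3.23 ± 0.34 and 2.85 ± 0.16, from 5.36 to 51.5 and from 3.09 to 28.5 (limma adjusted p = 2.64e-05 and 4.78e-07). Zeb1 fell by 1.07 ± 0.21. Of 14 catenin and nectin genes 3 rose and 7 fell, with Nectin3 at 41.0 against 88.2. Fat4 fell by 2.50 ± 0.42 and Pcdh8 by 3.21 ± 0.11. Among other cadherins, Cdh18 averaged 5.49 against 0.333 and Cdh24 15.5 against 54.2. Dsp rose by 1.55 ± 0.26. Cdh5 (9.97 against 5.41) and Pcdh12 (2.64 against 0.419), both known from endothelium, rose beside the endothelial marker sums given for Cdh13, and Cdh5 is itself 1 of those 6 markers. The 5 paraxial mesoderm and muscle markers summed to 24.9 ± 2.52 in iNP and 3.22 ± 1.47 in E11.5 NP. Their part was not tested.

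In iSP minus E11.5 SP, 13 of 50 were higher, 25 lower and 12 not called, against 35.5% and 32.1% of all genes. Here 9 of 14 catenin and nectin genes fell and 1 rose, and all 10 tested protocadherins were called, 4 higher and 6 lower. Zeb2 fell by 2.40 ± 0.16 from 218 to 41.6 (limma adjusted p = 1.64e-06), while Twist1 rose by 1.34 ± 0.22 from 117 to 287. The junction genes Nectin2 and Vcl averaged 85.9 against 274 and 139 against 413. Fat4 fell by 2.27 ± 0.23, as in the other ES-derived groups, and Fat3 rose by 1.67 ± 0.17. The type II cadherin Cdh9 averaged 0.405 against 4.88, Cdh24 fell by 1.91 ± 0.17. Pcdh10 rose by 1.72 ± 0.13, and Pcdh17 fell by 1.58 ± 0.16. The desmosomal Pkp2 fell by 2.52 ± 0.32 and Esrp1 by 1.87 ± 0.30, and 6 of 8 bud markers also fell, with the sums given above. Their part in these was not tested.

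Whether the source difference itself was unequal between cell types was tested as an interaction over 16 libraries. It was called for 31 of 59 partner genes between UB and NP, 34 of 62 between UB and SP and 27 of 57 between NP and SP, where 47.1%, 47.4% and 29.3% of all genes were called in either direction. Zeb1 parted NP from SP, as it fell in iNP and rose by 0.24 ± 0.08 in iSP (difference -1.32 ± 0.24, limma adjusted p = 0.000488). Twist2 rose in eUB by 1.47 ± 0.15 and fell in iSP by 0.76 ± 0.14 (difference 2.23 ± 0.21, limma adjusted p = 4.15e-07). The 3 source differences do not share libraries with each other. The 3 interactions do share source differences, so their counts are not independent.

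The ages E11.5 and E12.5 were compared in the same lists. For UB 2 of 51 were higher at E12.5 and 12 lower, against 14.2% and 12.3% of all genes, for NP 1 higher and 4 lower of 47, against 2.74% and 3.59%, and for SP 2 higher and 9 lower of 49, against 3.73% and 4.80%. These counts depended on single libraries. The UB count of 14 became 32 without E12.5 UB replicate 1, 7 without E12.5 UB replicate 2 or E11.5 UB replicate 1 or 2, and 8 without E11.5 UB replicate 4. The NP count of 5 became 13 or 8 without E12.5 NP replicate 1 or 2, 3 without E12.5 NP replicate 3 or 4, and 2 without E11.5 NP replicate 2 or 3. The SP count of 11 became 18 without E12.5 SP replicate 1 or E11.5 SP replicate 4, 7 without E12.5 SP replicate 3 or E11.5 SP replicate 1, and 5 without E12.5 SP replicate 4 or E11.5 SP replicate 2 or 3. The labels disagree on which UB group is the older. In the UB Grhl1 fell by 0.93 ± 0.13 and Ovol1 rose by 0.95 ± 0.16, and in NP Jup fell by 0.81 ± 0.11 and Ovol1 rose by 0.996 ± 0.17. In SP Esrp1 fell by 2.04 ± 0.36 and Dsg2 by 1.59 ± 0.30, beside 6 of 8 bud markers that also fell. Their part was not tested.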

How the data were processed

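RNA from sorted cells was sequenced as a stranded mRNA library, 4 samples in each of 9 groups (36 libraries). Reads were trimmed with cutadapt and aligned with STAR, according to the submitters' processing notes, which name the build GRCh38 although the gene identifiers are those of mouse. The counting program and its strand setting are not given in the sources used here. The deposited values are CPM per gene that the authors scaled with edgeR normalisation factors, a signal from which whole reads were recovered (within a tolerance of 0.01). The columns of the authors' own comparisons (fold changes and p-values) were not used.

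Differences were tested in R 4.3.3 with limma 3.58.1 (lmFit, eBayes with trend) on log2(value + 1), keeping genes that reached 1 in 4 or more of 8 libraries (of 16 for interactions), with Benjamini-Hochberg adjustment over all genes tested and a threshold of 0.05. Figures and tables were made with Python 3.11.15. Exonic lengths and positions came from GENCODE vM21 (GRCm38). The steps were tested on simulated data. Members and lists were chosen with earlier results of these data known. Named partner genes are, per list and comparison, at most the 2 called genes with the largest difference in each direction, and per member the 3 genes of highest Pearson r, of which 1 is not reported here. Genes beyond this rule are the markers. Alternatives were a pseudocount of 0.1, no filter, quantile and upper-quartile scaling, a fit of all 36 libraries, edgeR 4.0.16 on the recovered reads, a replicate block and leaving out each library. After the data were seen, the E12.5 libraries numbered 1 were left out together. The same comparisons were run at E12.5. Replicate numbers were taken as pairs where deviations of same-numbered libraries from their group means correlated at r above 0.1 in every pair. Of 18 comparisons this held in 1, E12.5 NP against E12.5 SP (r = 0.54 to 0.70). Elsewhere shared mice or cultures are not excluded, and the paper derived iNP and iSP from the same culture.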

Additional observations from a re-analysis of the deposited data

Results flagged for a closer look

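In 14 of 81 member groups of 4 libraries, 1 library lay far from the others by Dixon's criterion. Chance flags about 1 in 20 such groups. E12.5 UB replicate 1 gave 7 of these, with Cdh1 at 381 normalised CPM, Cdh3 at 408, Cdh2 at 69.6, Cdh6 at 14.4, Cdh8 at 1.15, Cdh11 at 123 and Cdh13 at 4.63. It was lowest for Cdh1 and Cdh3 and highest for the others, and its endothelial and nephron progenitor marker sums were high as well. In iNP replicate 2, Cdh2 (120), Cdh6 (12.8) and Cdh11 (116) were lowest. E12.5 SP replicate 1 was lowest for Cdh6 (19.9), E12.5 SP replicate 2 was highest for Cdh1 (3.16) and Cdh16 (1.57), and E11.5 NP replicate 1 was highest for Cdh8 (0.234).

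The source difference (ES-derived minus E11.5) was unequal between cell types by limma's interaction in 31 of 59 partner genes for UB against NP, 34 of 62 for UB against SP and 27 of 57 for NP against SP, where 47.1%, 47.4% and 29.3% of all genes were called. Of these, the genes called in opposite directions in the 2 cell types were, for UB against NP, Nectin1 (difference of differences -1.28), Cdh5 (-2.50), Fjx1 (-1.46), Pcdh18 (-1.45) and Dsg2 (-1.05), all lower in eUB and higher in iNP. For UB against SP they were Twist2 (2.23), Cdh5 (-3.13), Pcdh9 (2.33), Pcdh18 (-1.40) and Pcdh19 (1.52). For NP against SP they were Nectin1 (1.28), Twist2 (2.38), Zeb1 (-1.32), Fjx1 (1.41), Pcdh9 (2.05) and Dsg2 (1.61).

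Among the members, the ES-derived libraries lay wholly above the E11.5 libraries in 1 cell type and wholly below in another for 4 genes, and these differences were not tested. Cdh1 was lower in eUB (-0.19 on the log2 scale) and higher in iNP (2.37). Cdh2 was higher in eUB (3.64) and lower in iNP (-0.42) and iSP (-0.32). Cdh8 was higher in iNP (1.76) and lower in iSP (-1.71), and Cdh16 was higher in iNP (1.28) and lower in iSP (-1.36).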

How the results depend on the processing

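The 224 non-overlapping member pairs became 223 to 226 under other scalings and 224 to 239 when 1 library was left out. Of 2227 recomputed member differences, 2130 moved by less than the replicate spread and 97 moved more. The sign changed in 44 of the 2227, over 16 of 150 differences, all of which were at most 0.56 in size on the log2 scale. They include E12.5 UB minus E11.5 UB for Cdh2 (0.56 to -0.09), Cdh11 (0.33 to -0.46) and Cdh3 (-0.12 to 0.06) without E12.5 UB replicate 1. The counts of called partner genes between cell types and between sources, and the interactions, stayed within 1.5 times under every alternative run, including the removal of the E12.5 libraries numbered 1, chosen after seeing the data. Among 4415 recomputed partner results, 200 lost the call and 2 turned, both for Ovol2 in the eUB and iSP interaction, at 0.961 with a pseudocount of 0.1 and 2.55 with edgeR.

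The age counts moved more. For UB the 14 genes became 9 with the replicate block and 7 to 32 with 1 library left out (32 without E12.5 UB replicate 1). For NP the 5 became 2 to 13 (13 without E12.5 NP replicate 1). For SP the 11 became 23 in the fit of all 36 libraries and 5 to 18 (18 without E12.5 SP replicate 1). The other such libraries are named beside the counts above. The cause was not tested. Outside E12.5 NP against SP the numbers were not taken as pairs (r = -0.57 to 0.69), and the block moved no other count by over 1.5 times. The member ratios without 1 library and the bud sum without Wnt11 were also chosen after seeing the data. Depth limited Cdh8 and Cdh13 in eUB, which rested on 4 and 6 reads.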
